A study of Mus musculus with 9 samples.

Results

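The ETS transcription factors examined here are Fli1, Ets1, Ets2, Erg, Etv6, Gabpa, Elf1, Elf4 and Spi1, 9 genes of the mouse ETS family chosen by name because they act in blood cells. The choice was made with earlier results of these data known, so counts of their calls beside all probe sets are no independent evidence. All probe sets of these 9 genes that the platform annotation pairs with a single gene symbol were taken. That gave 20 of the 45101 probe sets on the array, for 9 of the 18193 genes it names. Fli1, Erg, Etv6, Gabpa, Elf1 and Elf4 had 2 probe sets each, Ets1 had 4, Ets2 had 3 and Spi1 had 1. RNA came from L8057, a mouse megakaryoblastic leukaemia cell line. Cells were infected with a lentivirus carrying a short hairpin RNA against CBFb (group CBFb_KD), a short hairpin RNA against Ring1b (group Ring1b_KD) or the empty vector (group Control). At 48 h after infection all cultures, Control included, were put under puromycin selection and, for 3 days, under TPA, a phorbol ester at 50 nM that drives these cells to mature. RNA was taken 72 h after that point. Each group had 3 arrays, given as biological triplicates. No separate infection is stated, so the p-values rest on a spread that may be partly technical. Every group is 1 cell line under TPA, the sources used here name 1 hairpin target per knockdown and not the number of hairpins, and the empty vector carries no hairpin.

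ETS factors bind DNA through a winged helix domain that recognises a GGAA core. In blood they act beside RUNX and GATA factors: Fli1 and Erg sustain megakaryocyte and stem cell genes, Gabpa acts earlier in megakaryocyte formation, Etv6 is a repressor needed for platelet production, Elf1 and Elf4 are activators of blood and lymphoid genes, and Spi1 encodes PU.1, the factor of myeloid and B cells. Ets1 and Ets2 are targets of the ERK kinases, a pathway that phorbol esters switch on. CBFb is the partner subunit that lets RUNX proteins bind DNA stably, and Ring1b is the ubiquitin ligase of Polycomb repressive complex 1. The study's title concerns the recruitment of that complex by core binding factors, and the comparisons ask how ETS transcripts stood when either protein's transcript was reduced.

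The values are log2 signals, quantile normalized. A probe set's signal depends on its own probes, so groups are compared within a probe set. Levels of different probe sets were used to rank them by brightness and in averages, and are not read as relative RNA amounts. A difference is a log2 difference of group means, and it was called when its limma adjusted p was under 0.05, adjusted over 45037 probe sets (array controls left out). On their brightest probe sets the transcripts aimed at were lower where labelled. Cbfb differed by -3.17 in CBFb_KD against Control and Rnf2, which encodes Ring1b, by -1.67 in Ring1b_KD against Control. Other Rnf2 probe sets differed there by -1.71 and -1.02, both called, and by 0.07 and -0.12, not called (limma adjusted p = 0.849 and 0.463). The label of a megakaryocytic line was checked on 7 measured markers, of which 6 lay above the median probe set (6.58). Pf4 stood at 14.41 ± 0.14 in Control and Itga2b at 11.22 ± 0.51 (SD, n = 3), while Gp6 lay below that median at 6.33 ± 0.04. The median was also reached by 2 of 3 erythroid, 3 of 5 mast cell, 2 of 3 B lymphocyte and 2 of 3 T lymphocyte markers. With 2 of 6 granulocyte and monocyte and 2 of 5 fibroblast and endothelium markers reaching it too, this check does not single out megakaryocytes. Over the 9 arrays Klf1 and Epor (erythroid) averaged 10.91 and 11.09, Cpa3 (mast cell) 10.29 and Col1a2 (fibroblast) 11.65, beside 11.62 for Itga2b. Of the 7, 3 markers (Gp9, Itga2b and Treml1) rose in CBFb_KD and none fell. The mean of the 7 per array ran from 9.81 to 9.90 in CBFb_KD, from 8.88 to 9.18 in Control and from 8.80 to 9.27 in Ring1b_KD. None of the 12 measured granulocyte, monocyte, B and T lymphocyte markers was called by limma in any comparison, and 0, 2 and 2 of them had an unadjusted p under 0.05 in CBFb_KD against Control, Ring1b_KD against Control and CBFb_KD against Ring1b_KD. None of 5 fibroblast and endothelium markers was called either, with 1 at an unadjusted p under 0.05 in each comparison. Of 3 erythroid markers Epor rose in CBFb_KD (0.55) and stood above Ring1b_KD (0.44), and the array means of the 3 ran from 9.18 to 9.40 in CBFb_KD, from 8.97 to 9.11 in Control and from 9.05 to 9.25 in Ring1b_KD. Of 5 mast cell markers Ms4a2 fell in both knockdowns (-1.92 and -1.49), Fcer1a rose in Ring1b_KD (1.61), and Fcer1a (-1.78) and Kit (-0.74) stood lower in CBFb_KD than in Ring1b_KD. Their array means ran from 7.42 to 7.69 in CBFb_KD, from 7.80 to 8.35 in Control and from 8.01 to 8.34 in Ring1b_KD, and the part of any marker in the values that follow was not tested. The scaling matters for Ring1b_KD: of all called probe sets 44.4% were higher than Control after quantile normalization, 37.7% as deposited and 15.1% after median centring, and between the knockdowns 52.8%, 59.2% and 81.6% were higher in CBFb_KD. Genes at or above the median level then differed between Ring1b_KD and Control by a median of 0.02, -0.05 and -0.14. In RNA from whole cultures, more cells of a stage and more RNA per cell cannot be told apart.

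With CBFb reduced, both probe sets of Fli1 rose, and a probe set each of Elf1 and Ets1 rose while one of Elf4 fell. That of Ets1 was dim (mean 4.28 over the 9 arrays), and the brightest Ets1 probe set differed by -0.01 and was not called. With Ring1b reduced, a probe set of Etv6 fell and the same probe set of Elf1 rose. Against each other, CBFb_KD stood above Ring1b_KD for Fli1 (both probe sets), Etv6, Gabpa and Ets1, and below it for Elf4. No probe set of Ets2, Erg or Spi1 was called by limma in any comparison, and 0, 1 and 1 of their 6 had an unadjusted p under 0.05 in these comparisons. In CBFb_KD against Control, 4 of the 20 probe sets were called higher and 1 lower, beside 9.65% of all probe sets called (4.90% higher, 4.76% lower). In Ring1b_KD against Control, 1 was higher and 1 lower, beside 8.48% of all (3.77% higher, 4.71% lower). Between the knockdowns 5 were higher in CBFb_KD and 1 lower, beside 13.4% of all (7.07% higher, 6.33% lower). On the brightest probe set of each gene, 1 of the 9 genes was called in CBFb_KD (Fli1, higher, beside 12.8% of all genes, and also Elf1, 2 of 9, when the replicate number was a block), 1 in Ring1b_KD (Etv6, lower, beside 10.1%) and 3 between the knockdowns (Fli1, Etv6 and Gabpa, beside 16.5%).

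Brighter probe sets are called more often, and 13 of the 20 lay at or above the median probe set. Of these 13, 4 were called in CBFb_KD (17.6% of all probe sets this bright), 2 in Ring1b_KD (14.7%) and 5 between the knockdowns (23.0%). The share called in Ring1b_KD thus lay near the background of probe sets this bright. Arrays of CBFb_KD and Control did not overlap for 10 of the 20 probe sets (26.2% of all probe sets), those of Ring1b_KD and Control for 6 (29.4%) and those of the knockdowns for 10 (29.7%). The median log2 difference of the 20 was 0.13 in CBFb_KD, where that of all probe sets was -0.01, and -0.05 in Ring1b_KD, where that of all was 0.01. In CBFb_KD against Control, 5 probe sets were called with all arrays, 1 without CBFb_KD array 2 or without Control array 3, 2 without CBFb_KD array 3 or Control array 2, and 3 without Control array 1. The 2 calls in Ring1b_KD against Control became 0 without Control array 2 or 3 and 1 without CBFb_KD array 3 or Ring1b_KD array 2 or 3. The 6 calls between the knockdowns became 3 without CBFb_KD array 1 or 2, Ring1b_KD array 2 or 3 or Control array 3.

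**Figure D1:**
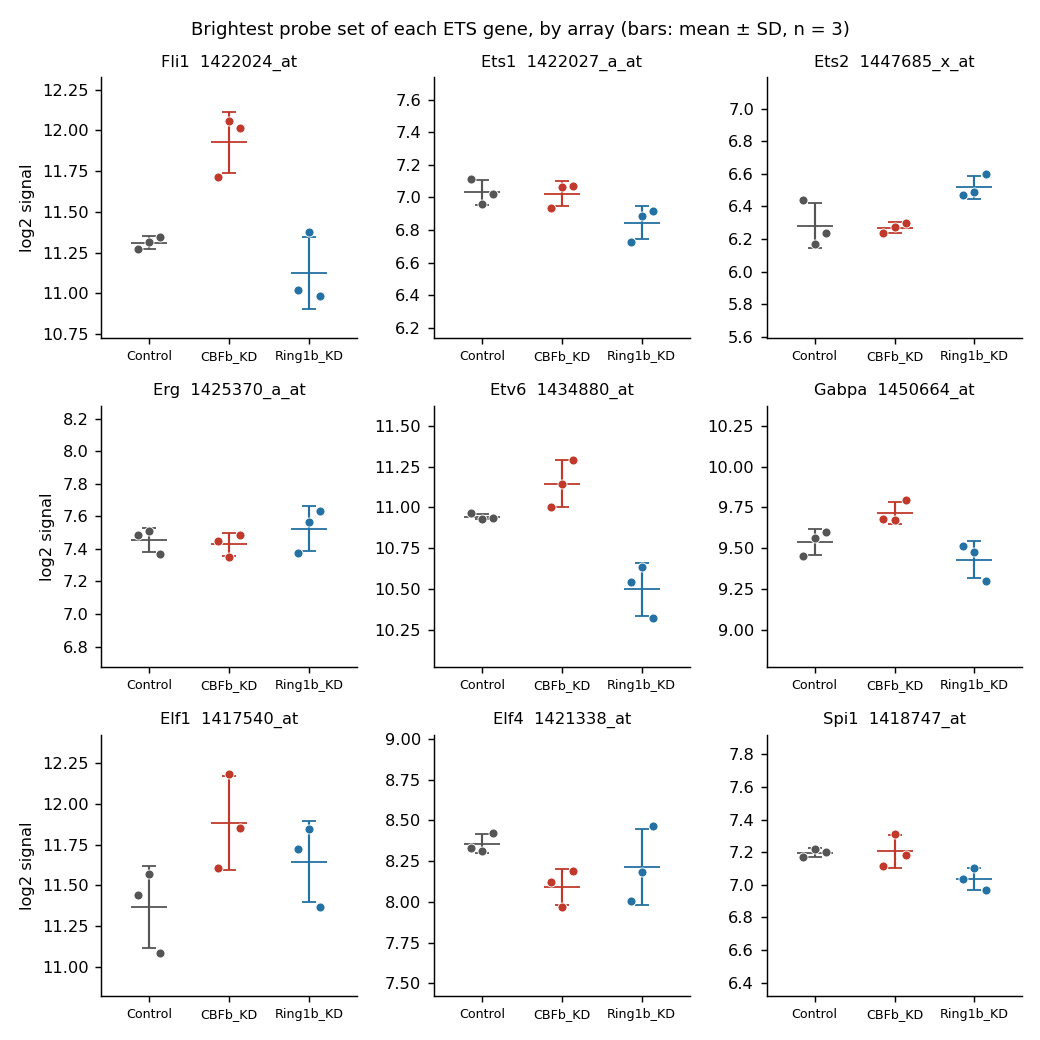
Log2 signal (vertical axis, the same span in every panel) of the brightest probe set of each of the 9 genes in the arrays of Control, CBFb_KD and Ring1b_KD; points are arrays and bars the mean ± SD (n = 3). The CBFb_KD arrays of Fli1 lie above all others, and the Ring1b_KD arrays of Etv6 lie below all others.

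Fli1, which activates platelet glycoprotein genes and is lost in a human platelet disorder with a chromosome deletion, had the lowest adjusted p of the 20 probe sets in CBFb_KD against Control. Its brighter probe set, 1422024_at, read 11.27, 11.31 and 11.35 in Control, 11.71, 12.06 and 12.02 in CBFb_KD, and 11.02, 11.38 and 10.98 in Ring1b_KD. Every CBFb_KD array lay above every other array, while Ring1b_KD and Control overlapped. The rise in CBFb_KD was 1.53-fold (log2 difference 0.62, SE 0.113, limma adjusted p = 0.00436), and this call held under each of 18 alternative settings, with adjusted p from 0.00125 to 0.0247. CBFb_KD exceeded Ring1b_KD by 0.80 (limma adjusted p = 0.000632), and this too was called in all 18. In Ring1b_KD against Control the difference was -0.18, with a 95% interval from -0.43 to 0.06 (limma adjusted p = 0.366).

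The other Fli1 probe set, 1433512_at, read 11.24, 11.07 and 11.14 in Control, 11.38, 11.59 and 11.56 in CBFb_KD, and 11.02, 11.09 and 10.68 in Ring1b_KD. Again the CBFb_KD arrays lay above all others. Here the rise against Control was smaller, 1.28-fold (log2 difference 0.36, limma adjusted p = 0.0496), at the edge of the threshold. That call was lost with the values as deposited (adjusted p = 0.0951), with median centring (0.15), without the intensity trend (0.0573) and without CBFb_KD array 2 or 3, Ring1b_KD array 1 or any 1 Control array (0.0565 to 0.176). Against Ring1b_KD it stood higher by 0.58 (limma adjusted p = 0.00303), which was called under all of its 16 alternatives. The rise of the megakaryocyte markers and of Epor in CBFb_KD, given above, ran beside that of Fli1, and its part in the Fli1 values was not tested.

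Ets1 lies next to Fli1 on chromosome 9 with no protein-coding gene between them in the GRCm38.p6 gene table, and encodes a factor of lymphoid cells that ERK phosphorylates. Its brightest probe set, 1422027_a_at, read 7.11, 6.96 and 7.02 in Control, 6.93, 7.06 and 7.07 in CBFb_KD, and 6.73, 6.89 and 6.92 in Ring1b_KD. The CBFb_KD and Control arrays overlapped and their difference was -0.01, with a 95% interval from -0.19 to 0.18. Ring1b_KD lay below Control in every array, by 0.19, and was not called (limma adjusted p = 0.213). The other 3 Ets1 probe sets were dim, below the median probe set. Of them, 1426725_s_at read 4.28, 4.07 and 4.19 in Control and 4.48, 4.43 and 4.43 in CBFb_KD, a called difference of 0.27 (limma adjusted p = 0.0264) that was lost without any 1 CBFb_KD array or without Control array 2 or 3 (0.0596 to 0.115). It also stood above Ring1b_KD by 0.23 (limma adjusted p = 0.0479), a call lost under 10 of 15 alternatives. At 1422028_a_at the arrays of Ring1b_KD (5.87, 5.94 and 5.84) lay above those of Control (5.75, 5.58 and 5.45), by 0.29 (limma adjusted p = 0.0599), and passed with the values as deposited (0.37, adjusted p = 0.0255), with median centring (0.29, adjusted p = 0.0477) or without Control array 1 (0.37, adjusted p = 0.033). The dimmest, 1452163_at, differed from Control by 0.15 in CBFb_KD and -0.09 in Ring1b_KD, with all groups overlapping and no call. The 4 probe sets of Ets1 thus did not move together in either knockdown.

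Erg and Ets2 are the neighbouring pair on chromosome 16, and no probe set of either passed the test. Erg encodes a stem cell factor that is the closest relative of Fli1. Its brighter probe set, 1425370_a_at, read 7.48, 7.51 and 7.37 in Control, 7.45, 7.35 and 7.49 in CBFb_KD, and 7.37, 7.57 and 7.63 in Ring1b_KD, and all groups overlapped. The 95% interval of its difference from Control ran from -0.22 to 0.17 in CBFb_KD and from -0.13 to 0.27 in Ring1b_KD, so both exclude a rise of the size of that of Fli1 1422024_at in CBFb_KD. Erg 1440244_at, the dimmer probe set, differed from Control by 0.05 in CBFb_KD and -0.07 in Ring1b_KD, with all groups overlapping. Over the 9 arrays it ran opposite to the brighter probe set (Pearson r = -0.854). The 3 probe sets of Ets2, all dim, differed from Control by -0.01 to 0.09 in CBFb_KD. At 1447685_x_at Ring1b_KD read 6.47, 6.49 and 6.60 and Control 6.44, 6.17 and 6.24, a difference of 0.24 that was not called (limma adjusted p = 0.118) but passed with the values as deposited (0.33, adjusted p = 0.0491). On this array a name ending in x marks probes that can bind other transcripts too, and 2 of the 3 Ets2 probe sets carry it.

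Etv6, a repressor whose fusion and germline forms are known from leukaemia and low platelet counts, was the member that fell when Ring1b was reduced, at 1 of its 2 probe sets. Its brighter probe set, 1434880_at, read 10.96, 10.93 and 10.94 in Control, 11.00, 11.14 and 11.29 in CBFb_KD, and 10.54, 10.64 and 10.32 in Ring1b_KD. The Ring1b_KD arrays lay below all others and the CBFb_KD arrays above all others. It fell 1.36-fold in Ring1b_KD (log2 difference -0.45, SE 0.096, limma adjusted p = 0.014). Without any 1 Control array the adjusted p was 0.0509 to 0.0543. In CBFb_KD the difference from Control was 0.20 and was not called (limma adjusted p = 0.27). The knockdowns differed by 0.65, 1.57-fold (limma adjusted p = 0.000876), a call that held under all 18 alternatives.

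The other Etv6 probe set, 1423401_at, gave 9.44, 9.15 and 9.40 in Control, 9.17, 9.73 and 9.72 in CBFb_KD, and 9.40, 9.51 and 9.56 in Ring1b_KD. All groups overlapped, CBFb_KD array 1 stood apart from the other arrays of its group, and no comparison passed. In Ring1b_KD it differed from Control by 0.17, with a 95% interval from -0.14 to 0.47, opposite in sign to 1434880_at and below 0 with median centring (-0.02). Averaging both probe sets gave -0.14 (limma adjusted p = 0.439). Without CBFb_KD array 1 it was called higher in CBFb_KD (0.40, adjusted p = 0.0309). Which part of the Etv6 transcripts each probe set reads was not analysed here.

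**Figure D2:**
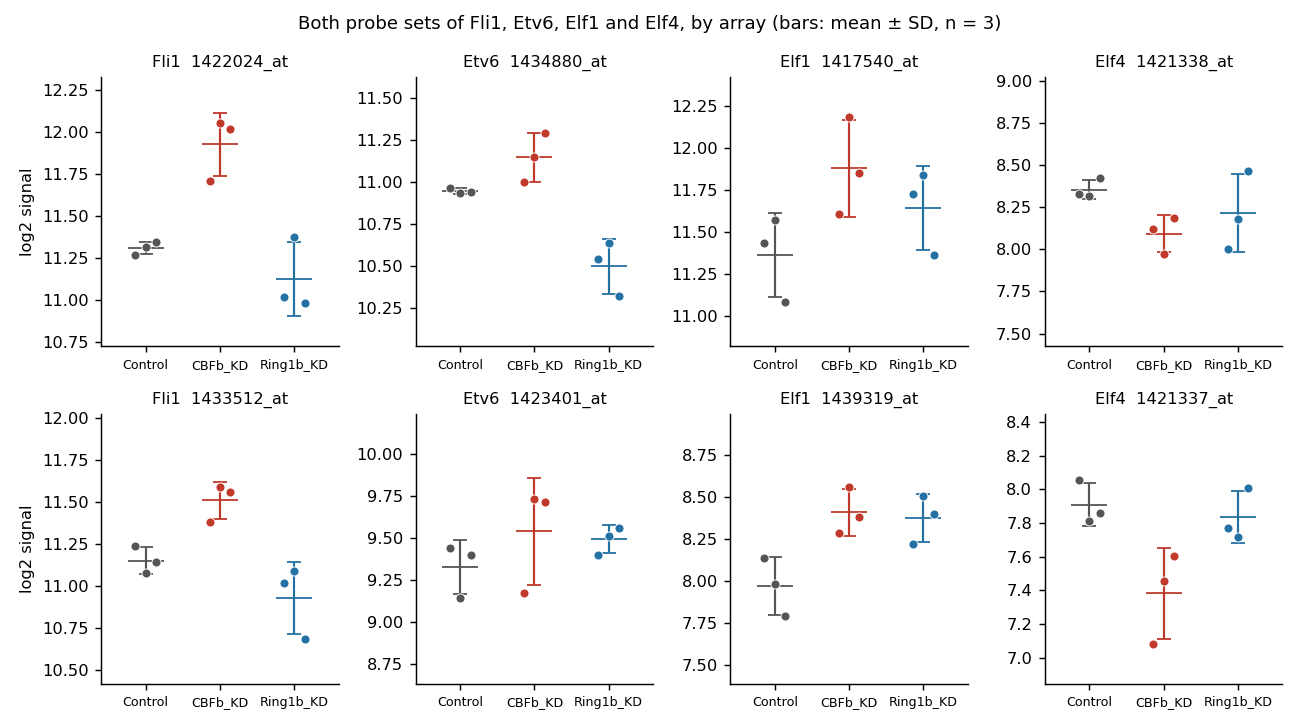
Log2 signal (vertical axis, the same span in every panel) of the brighter (top row) and dimmer (bottom row) probe set of Fli1, Etv6, Elf1 and Elf4 in each array, with mean ± SD (n = 3). Both probe sets of Fli1 and of Elf1 lie above Control in CBFb_KD, while for Etv6 in Ring1b_KD the top probe set lies 0.45 below Control and the bottom one 0.17 above it.

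Gabpa encodes the DNA-binding subunit of GA-binding protein, a widely expressed factor of mitochondrial and early megakaryocyte genes. Probe set 1450664_at read 9.45, 9.56 and 9.60 in Control, 9.68, 9.67 and 9.79 in CBFb_KD, and 9.51, 9.48 and 9.30 in Ring1b_KD. The CBFb_KD arrays lay above all others, by a margin that did not pass against Control (0.18, limma adjusted p = 0.278). CBFb_KD exceeded Ring1b_KD by 0.29 (limma adjusted p = 0.0452), a call lost under 11 of 18 alternatives. At 1450665_at the knockdown arrays spread widely (8.17 to 8.88 in CBFb_KD, 8.12 to 8.78 in Ring1b_KD, 8.49 to 8.55 in Control) and nothing was called. The genes of its partner subunit, Gabpb1 and Gabpb2, differed from Control by -0.14 to 0.04 and were not called.

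Elf1, an activator of many blood genes, read higher in both knockdowns, with calls at its dimmer probe set. That probe set, 1439319_at, gave 8.14, 7.98 and 7.79 in Control, 8.28, 8.56 and 8.38 in CBFb_KD, and 8.22, 8.50 and 8.40 in Ring1b_KD. Every knockdown array lay above every Control array. The rise was 1.35-fold in CBFb_KD (log2 difference 0.44, SE 0.113, limma adjusted p = 0.0285) and 1.32-fold in Ring1b_KD (0.40, limma adjusted p = 0.0463). Both comparisons use the same 3 Control arrays, of which array 3 was the lowest, and without it neither was called (0.144 and 0.188). In Ring1b_KD the call was also lost with the values as deposited (0.066) and with median centring (0.151). The knockdowns differed by 0.03, with a 95% interval from -0.21 to 0.28.

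The brighter Elf1 probe set, 1417540_at, read 11.44, 11.57 and 11.09 in Control, 11.61, 12.18 and 11.85 in CBFb_KD, and 11.73, 11.84 and 11.37 in Ring1b_KD. The CBFb_KD arrays lay above those of Control with a narrow gap, and those of Ring1b_KD overlapped both. Its difference in CBFb_KD was 0.52, 1.43-fold, and missed the threshold (limma adjusted p = 0.069). It passed with 1 probe set per gene tested (0.0442), with the mean of both probe sets (0.48, adjusted p = 0.0273), with dim probe sets left out (0.0463), with the replicate number as a block (0.00857), and without CBFb_KD array 1 (0.0264) or Ring1b_KD array 3 (0.046). In Ring1b_KD it differed by 0.28 (limma adjusted p = 0.335).

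Elf4, known as MEF, is an activator in natural killer and T cells and of interferon genes, and in CBFb_KD its values lay below Control where those of Elf1 lay above. Its dimmer probe set, 1421337_at, read 8.06, 7.81 and 7.86 in Control, 7.08, 7.46 and 7.61 in CBFb_KD, and 7.77, 7.72 and 8.01 in Ring1b_KD. All CBFb_KD arrays lay below all others. It fell 1.44-fold in CBFb_KD (log2 difference -0.53, SE 0.132, limma adjusted p = 0.0242), and without CBFb_KD array 1 or 2 or Control array 1 or 3 the adjusted p was 0.0525 to 0.104. CBFb_KD lay below Ring1b_KD by 0.45 (limma adjusted p = 0.0408), a call lost under 9 of 16 alternatives. The brighter probe set, 1421338_at, read 8.33, 8.31 and 8.42 in Control and 8.12, 7.97 and 8.19 in CBFb_KD, also without overlap, and its difference of -0.26 was not called (limma adjusted p = 0.21). In Ring1b_KD the Elf4 probe sets differed from Control by -0.14 and -0.08, and neither passed.

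Promoter windows from RefSeq (GRCm38.p6) were found for 6 of the 9 genes, 10 windows in all, and their 250 bases before the transcript start were searched on both strands for the ETS core GGAA, the RUNX motif TGTGGT and the GATA motif AGATAA. Shown are those of Etv6 and Elf4, the members with a probe set that fell, at a start with no annotated gene sequence before it. Capitals mark matches of the ETS core, read as GGAA or, on the other strand, TTCC.

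Etv6, chr6:134035450-134035699, plus strand: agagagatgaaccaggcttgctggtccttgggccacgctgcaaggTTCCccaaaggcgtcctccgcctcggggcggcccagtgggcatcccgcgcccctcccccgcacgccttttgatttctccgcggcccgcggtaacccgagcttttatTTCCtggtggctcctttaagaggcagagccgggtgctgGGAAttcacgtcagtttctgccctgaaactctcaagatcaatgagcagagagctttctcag
Elf4, chrX:48463133-48463382, minus strand: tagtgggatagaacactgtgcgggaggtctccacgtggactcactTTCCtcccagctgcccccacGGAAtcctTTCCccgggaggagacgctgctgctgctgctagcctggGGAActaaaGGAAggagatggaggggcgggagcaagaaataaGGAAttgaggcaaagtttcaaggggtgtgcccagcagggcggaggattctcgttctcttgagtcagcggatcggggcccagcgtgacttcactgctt

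The Etv6 window held 3 matches of the ETS core and the Elf4 window shown 6, where 93.4% of 32851 windows of this length held at least 1 and 8.69% held 6 or more. A second Elf4 window, which lies within the annotated gene, held 2. The RUNX motif was in 0 of the 10 windows and in 14.0% of all windows, and the GATA motif was in 1 window, of Erg, and in 9.99% of all. Fli1, Ets1 and Spi1 had no window, so these counts do not cover them. A match is a run of letters and no measured binding site, and its absence says only that these letters are not in this window.

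Spi1 encodes PU.1, which is high in myeloid and B cells and low in erythroid and megakaryocytic cells. Its probe set, 1418747_at, read 7.17, 7.22 and 7.20 in Control, 7.12, 7.31 and 7.18 in CBFb_KD, and 7.03, 7.10 and 6.97 in Ring1b_KD. CBFb_KD and Control overlapped, with a difference of 0.01 and a 95% interval from -0.17 to 0.18. Ring1b_KD lay below both in every array, by 0.16 against Control (limma adjusted p = 0.258). Of 15 measured PU.1 target genes, limma called 0 in any of the 3 comparisons, where 12.8%, 10.1% and 16.5% of all genes were called. An unadjusted p under 0.05 was met by 0 genes in CBFb_KD, by 4 in Ring1b_KD and by 1 between the knockdowns. Of all 18193 genes, 4451, 4676 and 5577 met it. Most of the 15 lay below the median probe set, where calls are rarer, so their lack of calls says little about PU.1 output. The 15 had median differences from Control of -0.03 and -0.02, beside -0.01 and 0.01 over all genes.

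**Figure D3:**
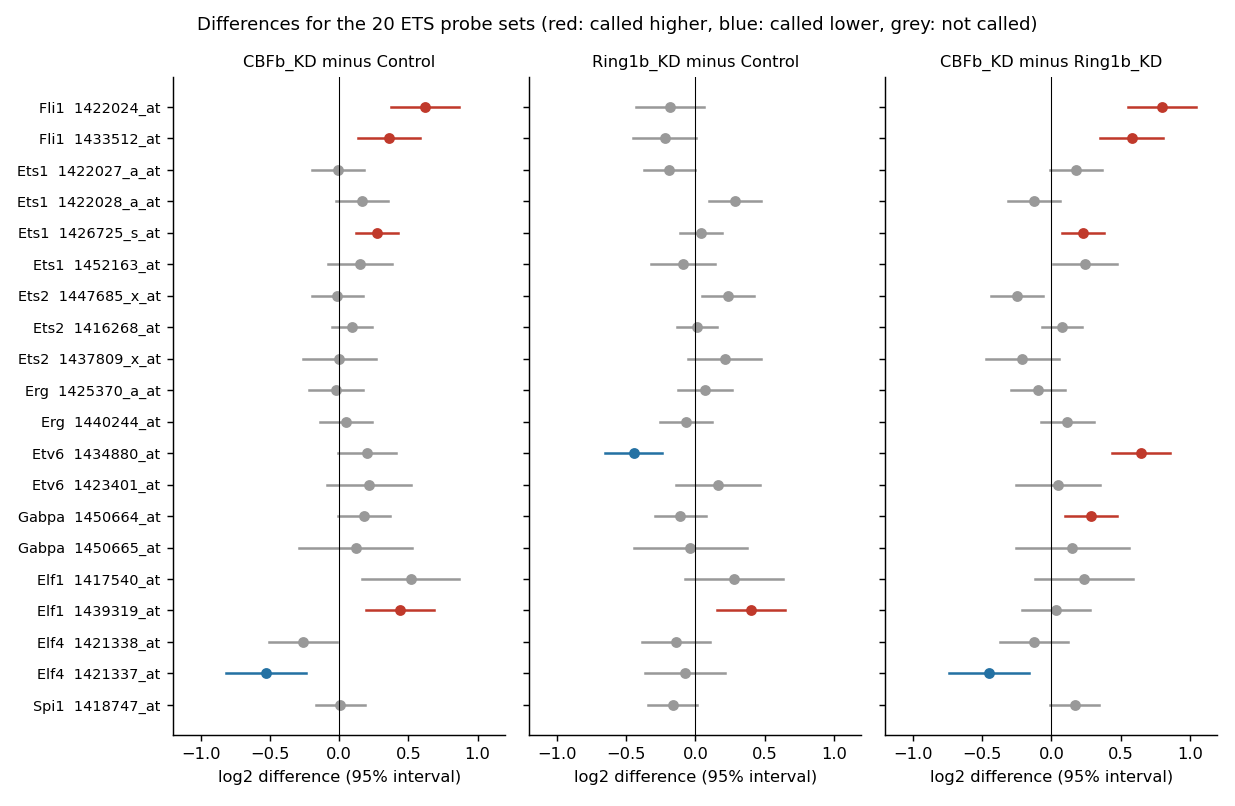
Log2 difference (horizontal axis) with its 95% interval for the 20 probe sets (rows) in CBFb_KD against Control, Ring1b_KD against Control and CBFb_KD against Ring1b_KD; red was called higher, blue lower and grey not called. In the left panel 4 are red and 1 is blue, in the middle panel 1 each, and in the right panel 5 are red and 1 is blue.

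Among 15 other ETS genes measured, 1 was called on its brightest probe set in either knockdown against Control, beside the 12.8% and 10.1% of all genes given above. It was Etv5, a PEA3 group factor that acts downstream of growth factor and ERK signals. Its brightest probe set, 1428142_at, read 9.74, 9.66 and 9.86 in Control, 9.19, 8.79 and 9.13 in CBFb_KD, and 8.91, 8.80 and 8.61 in Ring1b_KD. Every knockdown array lay below every Control array. Etv5 fell 1.65-fold in CBFb_KD (log2 difference -0.72, SE 0.117, limma adjusted p = 0.00212) and 1.97-fold in Ring1b_KD (-0.98, limma adjusted p = 0.000477), and both calls held under all 18 alternatives. Of its other probe sets, 1450082_s_at fell in both (-0.69 and -0.65) and 1420998_at fell in Ring1b_KD (-0.75), with -0.57 and no call in CBFb_KD (limma adjusted p = 0.0595).

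Its relative Etv4 stood lower in CBFb_KD than in Ring1b_KD (-0.28, limma adjusted p = 0.0338). On brightest probe sets it was the 1 gene of these 15 called between the knockdowns, where 16.5% of all genes were called. That call was lost under 9 of 18 alternatives. Over the 37 probe sets of these genes, 1 rose, 1428045_a_at of the Elf1 relative Elf2 in Ring1b_KD (0.41, limma adjusted p = 0.022), whose brightest probe set differed by 0.07 there and was not called (limma adjusted p = 0.631). The other ETS genes had a median difference of -0.02 in CBFb_KD and -0.03 in Ring1b_KD, beside -0.01 and 0.01 over all genes.

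**Figure D4:**
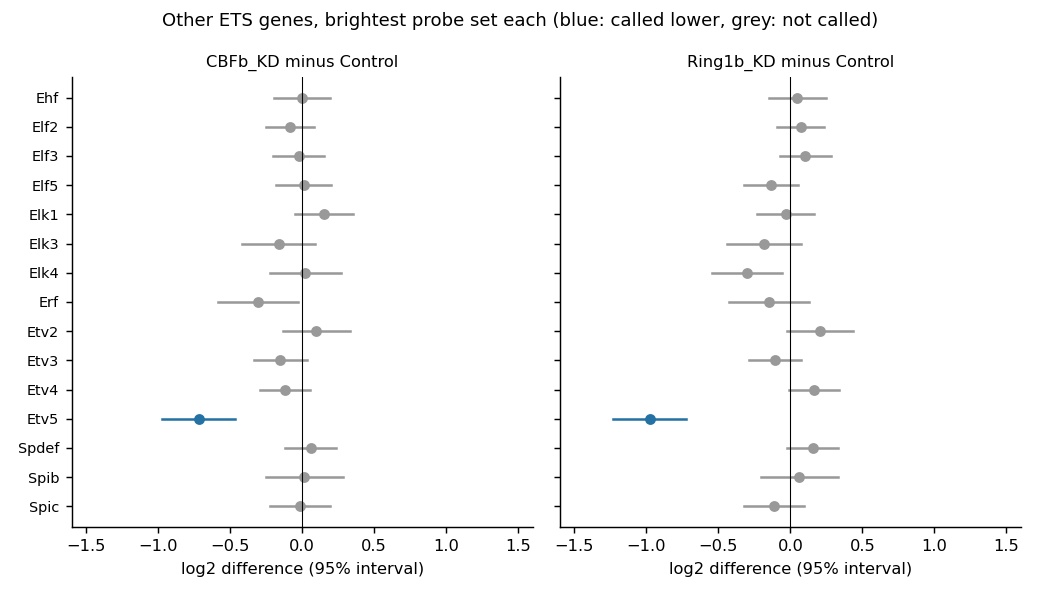
Log2 difference (horizontal axis) with its 95% interval for the brightest probe set of each of 15 other ETS genes (rows) in CBFb_KD and Ring1b_KD against Control; blue was called lower and grey not called. Etv5 is the 1 blue gene in both panels, at -0.72 and -0.98.

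Of 18 measured partners and cofactors of ETS proteins, 3 rose and 1 fell in CBFb_KD, beside 12.8% of all genes called. The gene that fell was Cbfb, the target of the hairpin. Runx1, the DNA-binding partner of CBFb that works with Fli1 on platelet genes, rose by 1.36 (limma adjusted p = 0.000573), Tal1, a basic helix-loop-helix factor, by 0.54, and Zfpm1, the GATA cofactor FOG1, by 0.53. Gata1 itself differed by 0.17 and was not called (limma adjusted p = 0.254). In Ring1b_KD 1 rose and 2 fell, beside 10.1% of all genes called: Ep300, an acetyltransferase that ETS factors recruit, rose by 0.33 (limma adjusted p = 0.0387), while Srf, the partner of the ETS factors Elk1 and Elk4, differed by -0.37 (limma adjusted p = 0.0235) and Zfpm1 by -0.37 (limma adjusted p = 0.0401). The Ep300 call was lost with the values as deposited (0.158), with median centring (0.46) and under 7 further alternatives. The Srf difference was -0.09 with its probe sets averaged (adjusted p = 0.485) and lost its call without Ring1b_KD array 1 or Control array 1 or 2 (0.0687 to 0.108). The Zfpm1 call was lost under 8 of 18 alternatives (0.0505 to 0.159). The list's median difference was 0.11 in CBFb_KD and 0.04 in Ring1b_KD, beside -0.01 and 0.01 over all genes. Between the knockdowns 3 were higher in CBFb_KD and 1 lower, beside 16.5% of all genes called, namely Zfpm1 (0.90), Runx1 (1.09), Sp100 (0.69), a nuclear body protein that binds Ets1, and Cbfb. The Sp100 call was lost without CBFb_KD array 2 or 3 or Ring1b_KD array 1 or 3 (0.0542 to 0.0822).

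The ERK pathway and COP1 ligase list, kinases that activate Ets1 and Ets2 and a ligase complex that degrades ETS proteins, had 10 measured members. In CBFb_KD 1 rose, Ksr1, a scaffold of the ERK cascade (0.51, limma adjusted p = 0.0135), and none fell, a share below that of all genes (12.8%). This call was lost without CBFb_KD array 3 or Control array 1 or 3 (0.0524 to 0.0624). In Ring1b_KD Cul4a, the cullin of that ligase, fell by 0.83 on the log2 scale (limma adjusted p = 0.000638), while Dda1 (0.33, limma adjusted p = 0.0208) and Rbx1 (0.45, limma adjusted p = 0.021), both ligase subunits, rose, 3 of 10 beside 10.1% of all genes. The Dda1 rise was lost with the values as deposited (0.102), with median centring (0.392) and without Ring1b_KD array 1 or any 1 Control array, and the Rbx1 rise without Ring1b_KD array 1 or 3 or any 1 Control array (0.053 to 0.0728). Cop1 itself differed from Control by -0.12 and -0.22 and did not pass. CBFb_KD stood above Ring1b_KD for Cul4a (0.84) and Ksr1 (0.60) and below it for Dda1 (-0.36), 3 of the 10 beside 16.5% of all genes. Here Dda1 lost its call as deposited (0.0719) and with median centring (0.311), and Ksr1 with its probe sets averaged (0.0635). The list's median difference was -0.04 in CBFb_KD and -0.07 in Ring1b_KD, beside the all-gene medians given above.

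Of 11 measured megakaryocyte genes known to carry ETS sites, 3 rose and none fell in CBFb_KD, beside 12.8% of all genes called, with a median difference of 0.23, beside -0.01 over all genes. Gp9, part of the platelet receptor for von Willebrand factor, rose by 2.32 (limma adjusted p = 0.000157), Ppbp, a platelet chemokine, by 1.62 (limma adjusted p = 0.00405) and Itga2b, the platelet integrin alpha subunit, by 1.04 (limma adjusted p = 0.0291). The Itga2b call was lost under 6 of 18 alternatives, among them without any 1 CBFb_KD array. Pf4, another platelet chemokine gene, differed by 0.32 (limma adjusted p = 0.332). In Ring1b_KD none rose and Vwf, the von Willebrand factor gene, was lower (-0.75, limma adjusted p = 0.0324), at a dim signal of 4.77 ± 0.15 against 5.52 ± 0.26 in Control (SD, n = 3). That 1 of 11 stood beside 10.1% of all genes, and its call was lost without any 1 Ring1b_KD array or Control array 1 or 2 (0.0619 to 0.112). CBFb_KD stood above Ring1b_KD for Gp9 (2.43), Ppbp (2.11) and Vwf (1.13), 3 of 11 beside 16.5% of all genes. This list was chosen with the rise of platelet genes in these arrays known, so its direction is no independent evidence. Over the 54 genes of these partner, regulator and target lists, 8 were called with CBFb reduced (14.8%, beside 12.8% of all genes), 7 with Ring1b reduced (13.0%, beside 10.1%) and 10 between the knockdowns (18.5%, beside 16.5%), shares near those of all genes. Cbfb, the target of the hairpin, is among the 54 and is counted in the 8 and in the 10. The 7 became 1 without Ring1b_KD array 1 or Control array 1 or 2 and 3 without Control array 3.

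The genes whose brightest probe sets followed the 2 members called against Control most closely over the 9 arrays were sought among 8828 named genes at or above the median gene. For Fli1 they were Spryd7 (Pearson r = 0.993), Uhmk1 (0.991), a kinase, and P2ry1 (0.990), the platelet ADP receptor, whose own differences from Control were 0.23, 0.61 and 0.94 in CBFb_KD. For Etv6 1434880_at they were Napg (0.990), a vesicle fusion protein, Gnai2 (0.985), a G protein alpha subunit, and Clint1 (0.985), a clathrin adaptor, at -0.35, -0.30 and -0.98 in Ring1b_KD. All values come from the same 9 arrays in 3 groups and are given as a description.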

How the data were processed

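RNA of 9 cultures was measured on 1-colour short-oligonucleotide arrays (oligo-dT priming, biotin label, per the labels' protocols). The values the authors deposited are log2 signals, judged from their range of 3.23 to 15.35, and how they were background corrected, summarised and normalized is not stated in the labels. Array medians ran from 6.51 to 6.65, so the 45037 probe sets other than the 64 controls were quantile normalized, which removes a shift of whole arrays whatever its origin. By the platform annotation 34945 probe sets have 1 symbol, 932 have more than 1 and 9160 have none here. Where 1 value per gene was needed, the gene was read from its brightest probe set (mean of the 9 arrays).

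Group means were fitted to all 9 arrays with limma 3.58.1 in R 4.3.3 (lmFit, eBayes with trend = TRUE, 6.186 prior degrees of freedom). P-values are 2-sided, with Benjamini-Hochberg adjustment across the 45037 probe sets, and 95% intervals are unadjusted. The fit was tested on simulated data. The number of arrays limits the precision. Alternatives were the values as deposited, median centring, 1 probe set or the averaged probe sets per gene, no dim probe sets (below the median), a robust variance, no intensity trend, the replicate number as a block, only the groups compared, and each array left out. The 3 same-number pairs of CBFb_KD and Control arrays had deviations from their group means that correlated at 0.121 to 0.281, all over 0.1. CBFb_KD array 1 correlated slightly better with Control array 3 (0.126) than with Control array 1 (0.121). The check thus hints at pairing by number in that comparison, from the data and not from the labels, and does not establish it. The main fit uses no block. The same-number pairs of Ring1b_KD were not all over 0.1.

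Named are all member probe sets, Cbfb, Rnf2, up to 4 called genes per list and comparison, called other ETS genes, and the 3 genes most like each member called against Control on its brightest probe set. The markers, Gabpb1, Gabpb2, Gata1, Pf4, Cop1 and the further Etv5 and Elf2 probe sets were named after their values were seen. Members, lists and tests were chosen with earlier results of these data known. Listed genes without a single-symbol probe set were not analysed here.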

Additional observations from a re-analysis of the deposited data

How the results depend on the processing

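The limits lie in 3 arrays per group and in member differences of under 2-fold, so that most calls of single members sit near the threshold. Over all settings run, the Fli1 1422024_at calls in CBFb_KD against Control and against Ring1b_KD, the Etv6 1434880_at call between the knockdowns and both Etv5 1428142_at falls were kept. The check given with the processing hints that the replicate numbers pair CBFb_KD with Control and does not establish it. In the other comparisons the arrays share only a number: over the 9 same-number pairs of all groups r ran from -0.145 to 0.281, 4 were over 0.1, and 8 of 9 arrays correlated best with their own number, a hint from the data. With the replicate number as a block, 6, 2 and 5 member probe sets were called in CBFb_KD against Control, Ring1b_KD against Control and between the knockdowns, and 2, 1 and 2 member genes, 1, 1 and 2 other ETS genes and 8, 7 and 12 list genes. In CBFb_KD against Control the block changed the call of Elf1 1417540_at and of no other member probe set.

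Of member genes on 1 value per gene, 1 was called in CBFb_KD against Control, but 2 with 1 probe set per gene tested, 2 with dim probe sets left out, 2 with the block and 3 with a gene's probe sets averaged. In Ring1b_KD against Control 1 was called, but 2 with the values as deposited and 0 with the mean of probe sets. With only the compared groups fitted, 1 member probe set was called in Ring1b_KD against Control and 3 between the knockdowns. Of other ETS genes 1 was called, but 2 in Ring1b_KD against Control as deposited and with median centring, and between the knockdowns 2 as deposited, 2 with median centring, 2 with the block and 0 with only the compared groups. The cause was not tested. With an array left out, in the order CBFb_KD against Control, Ring1b_KD against Control and between the knockdowns, calls ranged from 1 to 6, 0 to 2 and 3 to 5 for member probe sets, 1 to 2, 0 to 1 and 2 to 3 for member genes, 1 to 2, 1 to 2 and 0 to 1 for other ETS genes, and 6 to 9, 1 to 8 and 9 to 14 for list genes.

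No called difference changed sign.
In CBFb_KD against Control, the averaged probe sets of a gene gave 0.14 for Ets1, 0.0264 for Ets2 and 0.0118 for Erg, opposite in sign to its brightest probe set.
In CBFb_KD against Ring1b_KD, the averaged probe sets of Erg gave 0.00990, opposite in sign to its brightest probe set.
In Ring1b_KD against Control, the averaged probe sets of Ets1 gave 0.0135, opposite in sign to its brightest probe set.
In CBFb_KD against Control, with median centring, Ets1 1422027_a_at became 0.00196, Ets2 1437809_x_at became -0.0100.
In CBFb_KD against Ring1b_KD, with median centring, Elf4 1421338_at became 0.00985.
In Ring1b_KD against Control, with median centring, Ets1 1426725_s_at became -0.0140, Ets2 1416268_at became -0.00694, Etv6 1423401_at became -0.0234.
In CBFb_KD against Control, as deposited, Ets1 1422027_a_at became 0.00905, Ets2 1437809_x_at became -0.00295.
With an array left out, in CBFb_KD against Control, the log2 difference ran for Ets1 1422027_a_at from -0.0448 to 0.0360, for Ets2 1447685_x_at from -0.0699 to 0.0643, for Ets2 1437809_x_at from -0.0879 to 0.15, for Erg 1425370_a_at from -0.0673 to 0.0147, for Gabpa 1450665_at from -0.00833 to 0.35, for Spi1 1418747_at from -0.0476 to 0.0504.
With an array left out, in Ring1b_KD against Control, the log2 difference ran for Ets1 1426725_s_at from -0.0111 to 0.0929, for Ets2 1416268_at from -0.00759 to 0.0297, for Erg 1440244_at from -0.15 to 0.0116, for Gabpa 1450665_at from -0.19 to 0.14.
With an array left out, in CBFb_KD against Ring1b_KD, the log2 difference ran for Etv6 1423401_at from -0.0471 to 0.23, for Gabpa 1450665_at from -0.0275 to 0.38, for Elf1 1439319_at from -0.0438 to 0.10, for Elf4 1421338_at from -0.23 to 0.00106.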
